A study of Mus musculus with 4 samples.

Results

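The genes of fatty acid oxidation and the target genes of PPARα were followed in the livers of mice fed a steatohepatitis diet with or without 7-ketocholesterol. The group held 36 of the 24346 gene symbols listed for each library, taken by symbol: 2 regulators, 4 genes of fatty acid activation and the carnitine shuttle, 11 of mitochondrial β-oxidation, 7 of peroxisomal oxidation, 3 of microsomal ω-oxidation, 4 acyl-CoA thioesterases and 5 other PPARα targets. FPKM (fragments per kilobase of transcript and per unit of mapped fragments) corrects a gene's reads for its length and for the size of the library. All 36 averaged at least 0.5 FPKM, the level required for testing. The mice were male C57BL/6 mice, 8 weeks old at the start of feeding, and every one of them received the NASH diet, which is rich in fat, cholesterol and sucrose and contains bile salt (cholate), for 3 weeks. The 7KC group (n = 2 libraries) ate this diet with added 7-ketocholesterol (7KC), an oxidation product of cholesterol, and the control group (n = 2) ate it without. No imiquimod had been applied when these livers were taken, and no mice on an ordinary diet are among the libraries, so each value compares a NASH diet with a NASH diet.

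Hepatocytes break down fatty acids in several compartments. Long chains are coupled to coenzyme A, carried into mitochondria by the carnitine shuttle and shortened there by β-oxidation, whereas very long and branched chains are first shortened in peroxisomes, and CYP4A enzymes of the endoplasmic reticulum attack the far (ω) end of the chain. PPARα, a nuclear receptor that binds fatty acids, pairs with RXR on DNA sites built from a pair of AGGTCA half-sites with 1 base between them (DR1 sites) and switches on genes of all of these routes, above all during fasting. The Cyp4a genes, Vnn1, Pdk4, Fgf21 and Ehhadh are among the targets that respond most to PPARα ligands in mouse liver.

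Because PPARα is known to act through DR1 sites, promoters of the members were taken from RefSeq on GRCm38.p6, the assembly that mm10 names. A window from 250 bases before to 50 bases after the start was given for 29 of the 36 members, and it was not analysed here for Acaa2, Decr1, Hsd17b4, Cyp4a10, Cyp4a14, Vnn1 and Angptl4. The DR1 motif, AGGTCA repeated after 1 free base, was searched on both strands, counting mismatches over its 12 fixed bases. No member window held it without a mismatch, 1 held it with at most 1 mismatch (Fabp1, 3.45% of the 29 against 0.644% of all) and 4 with at most 2 (Slc25a20, Etfa, Acot4 and Fabp1), which is 13.8% of the 29, against 4.40% of the 27025 genes with a window. The AGGTCA half-site, which is itself a part of the DR1 motif, stood in 20.7% of the member windows and in 18.1% of all. The 3 matches that lay before the start are printed here with the bases aligned to the motif in capitals, mismatches included, each on the strand of its gene, where all 3 read as its reverse complement, a repeat of TGACCT. The stretch of Fabp1 is at chr6:71199788-71199848 (plus strand), that of Etfa at chr9:55512284-55512344 (minus strand) and that of Acot4 at chr12:84038342-84038378 (plus strand).
Fabp1: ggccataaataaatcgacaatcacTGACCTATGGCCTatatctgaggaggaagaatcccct
Etfa: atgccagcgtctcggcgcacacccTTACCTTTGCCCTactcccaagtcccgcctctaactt
Acot4: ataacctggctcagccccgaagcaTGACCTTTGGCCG
In Fabp1 the match ran from 67 to 55 bases before the start, in Etfa from 77 to 65 and in Acot4 from 13 to 1. A match is a description of the letters, not a measured site of binding. As given below, both 7KC libraries lay below both control libraries in Etfa. They lay above both control libraries in Slc25a20, whose match is not printed, and the groups overlapped in Fabp1 and Acot4.

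Steps in the low FPKM values put the libraries at an estimated 13600000 to 17100000 mapped reads, with control replicate 1 the deepest. The libraries were liver by their markers: all 12 hepatocyte markers were detected in each of them, with Alb, the albumin gene, at 18988 FPKM or more, and the muscle genes Ckm, Acta1 and Myh4 were listed at 0 in all 4. The adipose genes Adipoq, Retn and Plin1 were listed at 0 in 3 libraries and were at most 0.391 FPKM in control replicate 2. Most macrophage, T and NK cell markers had higher values in the 7KC libraries, although no leukocyte marker passed the threshold (limma, lowest adjusted p 0.0503 in Cd3e). The summed level of the 10 monocyte and macrophage markers was 738 and 524 FPKM in control liver and 1261 and 1972 FPKM with 7KC, and that of the 10 T and NK cell markers was 21.4 and 14.3 against 49.4 and 45.4 FPKM. Of the tested markers, 7 of 10 and 9 of 9 were higher in both 7KC libraries without overlap, against 25.1% of all tested genes. Lyz2 made up most of the macrophage sum, at 538 and 321 against 995 and 1583 FPKM. Vsig4 was lower without overlap (log2 change -0.41) and Clec4f overlapped (-0.03). The summed B cell markers also overlapped, at 6.68 and 2.26 against 6.41 and 6.4 FPKM. The summed level of the 12 hepatocyte markers was 78809 and 67646 FPKM in control liver and 56754 and 43259 FPKM with 7KC. All 12 hepatocyte markers had a log2 change below 0 on the deposited scale, with a median of -0.52. The median was -0.31 with libraries rescaled to the same FPKM sum and -0.21 after quantile normalization. On the deposited scale 11 of the 12 were lower in both 7KC libraries without overlap, against 27.4% of all tested genes, and Alb overlapped. Fewer hepatocytes and less of these RNAs per hepatocyte cannot be told apart in bulk liver.

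The comparison asked whether 7KC in the diet moved the fatty acid oxidation program of this liver. None of the 36 members passed the threshold in either direction (limma, Benjamini-Hochberg adjusted over all tested genes), where 0.480% of the 12299 tested genes were higher and 0.0244% were lower. At an unadjusted p under 0.05 there were 3 members (Vnn1 with a higher level, Acadvl and Angptl4 with lower ones), against 17.8% of all tested genes. In 7 members the 7KC values were both above the control values, against 25.1% of all tested genes, and in 13 members both were below them, against 27.4%. The log2 change was below 0 in 17 members and in 53.9% of all tested genes. The median log2 change of the members was 0.01, and that of all tested genes was -0.03. The changes ran from -0.39 in Ppargc1a and -0.40 in Etfa to 0.59 in Acot2 and 0.61 in Vnn1. For 27 of the 36 members the 95% interval of the change, from the limma fit, lay between -1 and 1 on the log2(FPKM + 0.5) scale. Fgf21 is among them, but at its low level a 2-fold change of FPKM is smaller than 1 on that scale, so its interval does not bound such a change. The 9 members with wider intervals were Ppargc1a, Cyp4a10, Cyp4a14, Acot2, Acot3, Acot4, Vnn1, Fabp1 and Pdk4. With 2 libraries against 2, no 2-sided exact permutation p can go below 0.333.

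**Figure D1:**
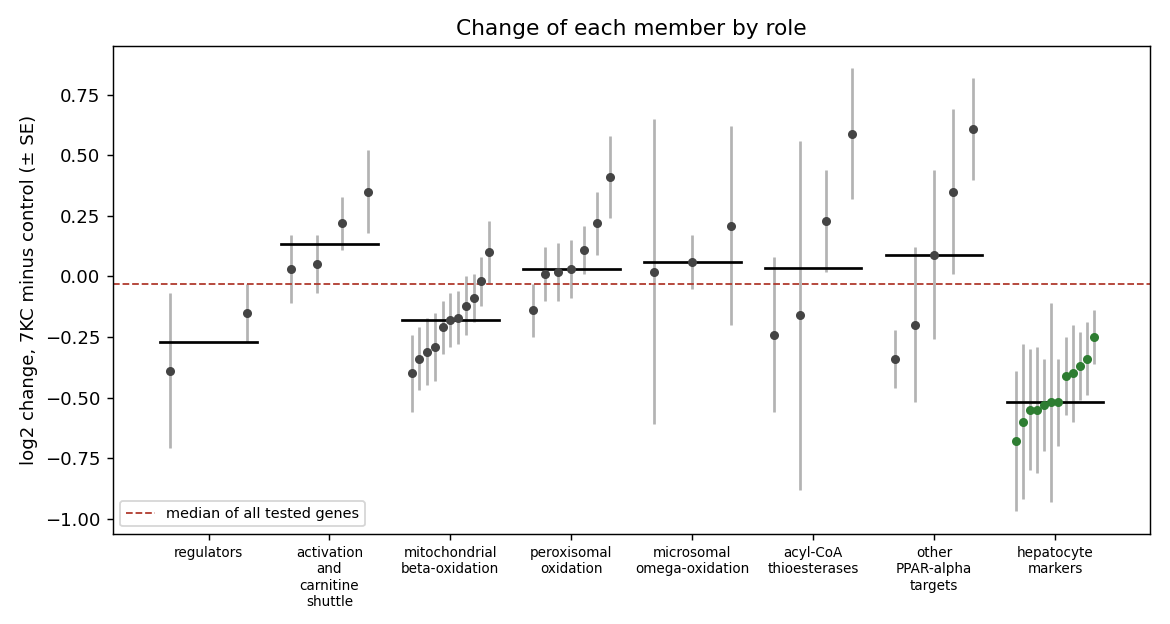
Log2 change of each member, 7KC minus control on the log2(FPKM + 0.5) scale, as points with the standard error of the limma fit, grouped by role; black lines are group medians, the dashed line is the median of all tested genes (-0.03), and the 12 hepatocyte markers are drawn in green for comparison. On this deposited scale the mitochondrial members have a median of -0.18 and the hepatocyte markers of -0.52. With equal library sums these medians are 0.03 and -0.31. The wide bars among the microsomal and thioesterase genes belong to Cyp4a14, Cyp4a10 and Acot3.

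Among the 11 genes of mitochondrial β-oxidation, 10 had lower values in both 7KC libraries than in both control libraries, against 27.4% of all tested genes, with 4 of the 10 keeping this with libraries rescaled to the same FPKM sum and none relative to the hepatocyte markers. Acaa2, the thiolase that releases acetyl-CoA in the last step, was the most abundant of them, at 506 and 504 FPKM in control liver and 433 and 380 FPKM with 7KC. The control libraries were almost equal and both 7KC libraries lay below them, with a log2 difference of -0.31 (SE 0.14, limma adjusted p 0.32). Acadvl, the very-long-chain acyl-CoA dehydrogenase that opens the spiral, was at 151 and 149 FPKM in control liver and 129 and 109 FPKM with 7KC (log2 change -0.34, SE 0.13, adjusted p 0.274). The electron transfer flavoprotein takes the electrons of these dehydrogenases. Its subunit gene Etfa was at 188 and 201 FPKM against 166 and 130 FPKM (log2 change -0.40, SE 0.16, adjusted p 0.284). The other subunit, Etfb, was at 293 and 276 against 250 and 216 FPKM (log2 change -0.29). Etfdh, which passes the electrons on to the respiratory chain, was at 88.5 and 90.5 against 81 and 77 FPKM (-0.18). In these 3 genes, too, the groups did not overlap and 7KC replicate 2 was the lowest library.

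The medium-chain dehydrogenase gene Acadm was at 145 and 145 FPKM in control liver and 122 and 129 FPKM with 7KC (log2 change -0.21, SE 0.11, limma adjusted p 0.381), and the long-chain dehydrogenase gene Acadl was at 95.7 and 92.5 against 84.3 and 83.3 FPKM, a log2 change of -0.17. The trifunctional protein that carries out the middle steps on long chains differed least. Its α subunit gene Hadha was at 71.8 and 71.9 against 68.2 and 66.7 FPKM (log2 change -0.09), and its β subunit gene Hadhb was at 80.4 and 79.3 against 78.9 and 78.2 FPKM (-0.02, with a 95% interval from -0.29 to 0.24). Of the auxiliary enzymes for unsaturated chains, Eci1, an enoyl-CoA isomerase, had a log2 change of -0.12 without overlap, and Decr1, the dienoyl-CoA reductase, was the 1 gene of the group above 0, at 47.1 and 38.9 FPKM in control liver and 46.2 and 45.6 with 7KC (0.10, overlapping). Thus the dehydrogenases, the electron carriers and the thiolase had changes from -0.40 to -0.17, and the trifunctional protein genes lay nearer to 0. Of the 75-base windows of their transcripts, 66.3% in Etfb and 57.2% in Hadhb occur in an annotated transcript of another gene symbol, so the level of these 2 depends on how the reads were assigned.

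The genes that bring fatty acids into mitochondria did not share this direction: all 4 had a log2 change above 0 on the deposited scale, with a median of 0.14. All 4 also lay above 0 after quantile normalization, with a median of 0.24. The other scalings tried multiply each library by 1 factor and raise the 7KC values relative to control, so these changes stay above 0 on them by construction. Acsl1, the main acyl-CoA synthetase of liver, was at 188 and 183 FPKM in control liver and 275 and 204 FPKM with 7KC (log2 change 0.35, SE 0.17, limma adjusted p 0.359), and most of that difference lay in 7KC replicate 1. Slc25a20, the carnitine-acylcarnitine carrier of the inner membrane, was at 47.4 and 43 against 53.5 and 52.2 FPKM (log2 change 0.22), without overlap. Cpt1a, the rate-controlling carnitine palmitoyltransferase and a PPARα target, was at 137 and 122 against 135 and 133 FPKM, a log2 change of 0.05 with a 95% interval from -0.25 to 0.35, and the groups overlapped. Cpt2, which reverses that step inside the mitochondrion, was at 56.3 and 48.6 against 57.5 and 49.3 FPKM (0.03). The direction of Cpt1a and Cpt2 turned when control replicate 2 was left out, to -0.03 and -0.08, and that of Cpt2 also without 7KC replicate 1 (-0.08).

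**Figure D2:**
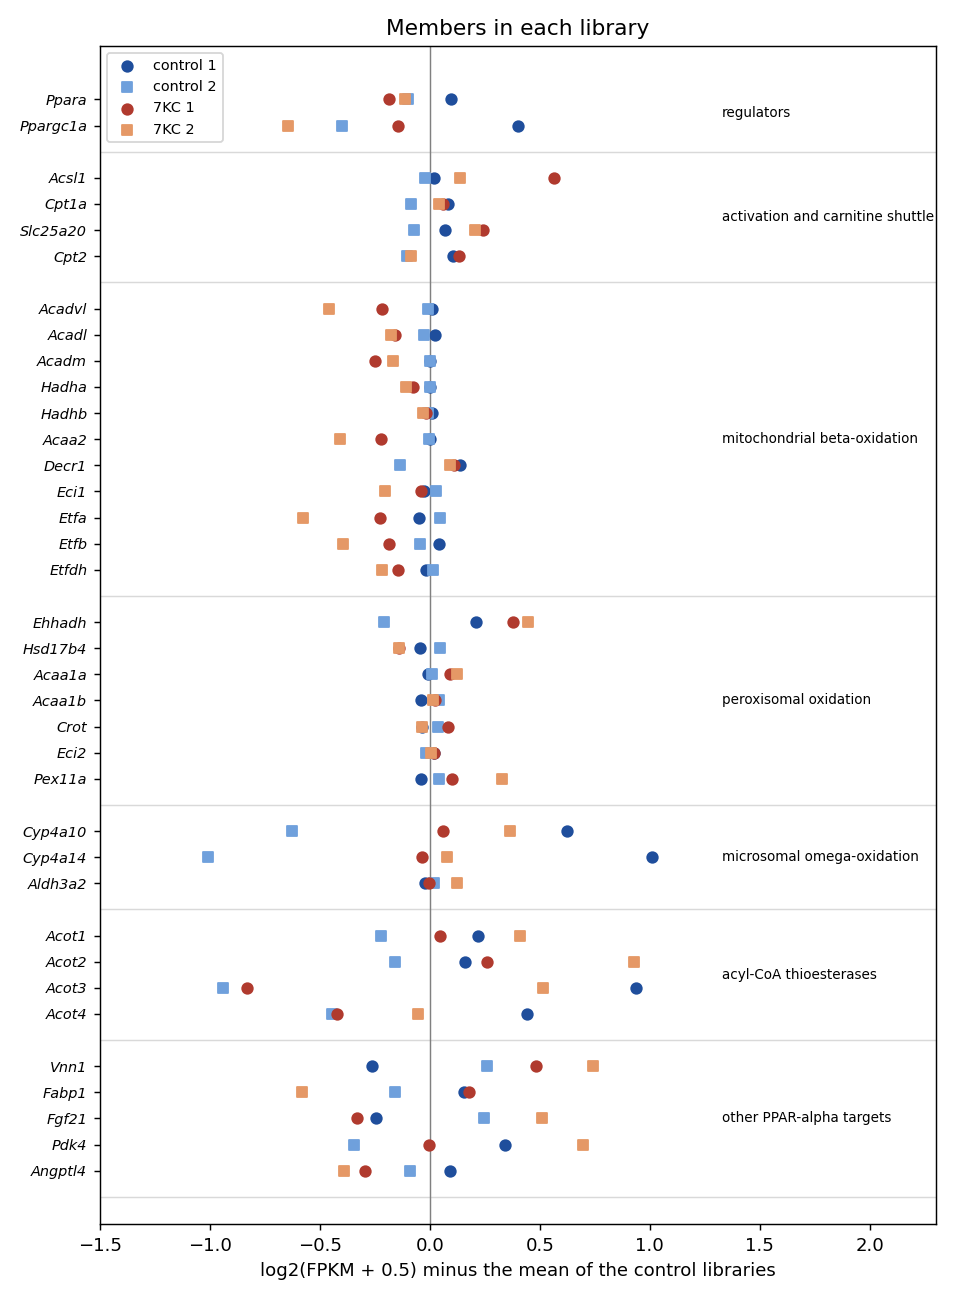
Level of each of the 36 members in each library, as log2(FPKM + 0.5) minus the mean of the control libraries, grouped by role; circles and squares are replicates 1 and 2, blue is control and red or orange is 7KC. On this deposited scale both 7KC points of 10 of the 11 mitochondrial members lie left of both control points, whereas the control points of Cyp4a10, Cyp4a14, Acot3 and Acot4 lie farther apart than the groups do.

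The 7 peroxisomal members had a median log2 change of 0.03, and the groups overlapped in 3 of them. Ehhadh, the bifunctional enzyme of the peroxisomal spiral and a classical PPARα target, was at 84.5 and 63.1 FPKM in control liver and 95 and 99.7 FPKM with 7KC. The 7KC livers were both higher, with a ratio of the means of 1.32 and a log2 difference of 0.41 (SE 0.17, limma adjusted p 0.289), while the control libraries were themselves 1.34-fold apart. Its transcript model gave an estimated 4018 and 2422 reads in control liver and 3592 and 3826 with 7KC, so counting error is small beside the spread between libraries. Pex11a, a membrane protein that promotes the division of peroxisomes, was at 34 and 36 against 37.6 and 44.1 FPKM (0.22, no overlap). Acaa1a, a peroxisomal thiolase gene, was at 78.6 and 79.7 against 84.5 and 86.2 FPKM (0.11, no overlap).

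Acaa1b, the other thiolase gene and the most abundant peroxisomal member, was at 301 and 319 FPKM in control liver and 315 and 313 FPKM with 7KC, a log2 change of 0.02 with a 95% interval from -0.29 to 0.33. Hsd17b4, the bifunctional enzyme used for branched chains and bile acid precursors, was the 1 member of this group below 0, at 141 and 150 against 132 and 132 FPKM (-0.14, no overlap). Crot, which makes carnitine esters for export from the peroxisome, and Eci2, an isomerase found in both peroxisomes and mitochondria, had changes of 0.03 and 0.01, and the groups overlapped in both. Acaa1a and Acaa1b share 27.3% and 28.5% of their 75-base windows with each other, so a part of their reads could have been exchanged. Ehhadh, Hsd17b4, Crot and Pex11a share none with another gene.

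Among the microsomal ω-oxidation genes the control libraries stood far apart. Cyp4a14, a fatty acid ω-hydroxylase that responds strongly to PPARα, was at 31.5 and 7.4 FPKM in control replicates 1 and 2 and at 15 and 16.3 FPKM in the 7KC libraries. The control libraries were 4.25-fold apart and both 7KC libraries lay between them. The log2 difference came to 0.02 (SE 0.63, limma adjusted p 0.986), with a 95% interval from -1.57 to 1.62. Cyp4a10, which lies beside it (chr4:115518264-115533649, plus strand, against chr4:115486200-115496142, minus strand, mm10), showed the same order, at 89.2 and 37.2 FPKM in control liver and 60.1 and 74.4 FPKM with 7KC (log2 change 0.21, SE 0.41, adjusted p 0.82). Without control replicate 1 the changes were 1.03 in Cyp4a14, which then passed the threshold (adjusted p 0.0391), and 0.84 in Cyp4a10, and without control replicate 2 they were -0.99 and -0.41. The direction of both genes therefore rested on which control library was kept, and no direction is given. Aldh3a2, the fatty aldehyde dehydrogenase that completes ω-oxidation, was the most abundant of the 3, at 73.7 and 75.9 FPKM against 74.5 and 81.6 FPKM (0.06, 95% interval -0.22 to 0.34). Of the 75-base windows of Cyp4a10, 19.1% occur in other genes, chiefly in Cyp4a32, which was at 13 and 7.18 against 10.2 and 10.8 FPKM and so had the same order of libraries. Cyp4a14 shares none.

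The spread between the control libraries was not limited to Cyp4a. In 7 of the 36 members the control libraries were at least 1.5-fold apart, where 12.5% of all tested genes were, and in 6 of these 7 control replicate 1 was the higher library, where 7.87% of all tested genes had it at least 1.5-fold higher. Acot3 was 4.54-fold apart, Cyp4a14 4.25-fold, Cyp4a10 2.40-fold, Pdk4 1.96-fold, Ppargc1a 1.93-fold and Acot4 1.91-fold. In Fgf21, control replicate 2 was the higher, 1.77-fold. Genes outside the members that follow feeding were also apart in the control libraries: Pck1, of gluconeogenesis, was at 2384 and 1166 FPKM and Ppp1r3g, of glycogen synthesis, at 13.9 and 3.57 FPKM, both picked after their values were seen. A short fast is described for the plasma lipoprotein measurements, but whether it preceded the collection of these livers, and the hour of collection, are not given in the sources used here, and the part of feeding in the result was not tested.

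**Figure D3:**
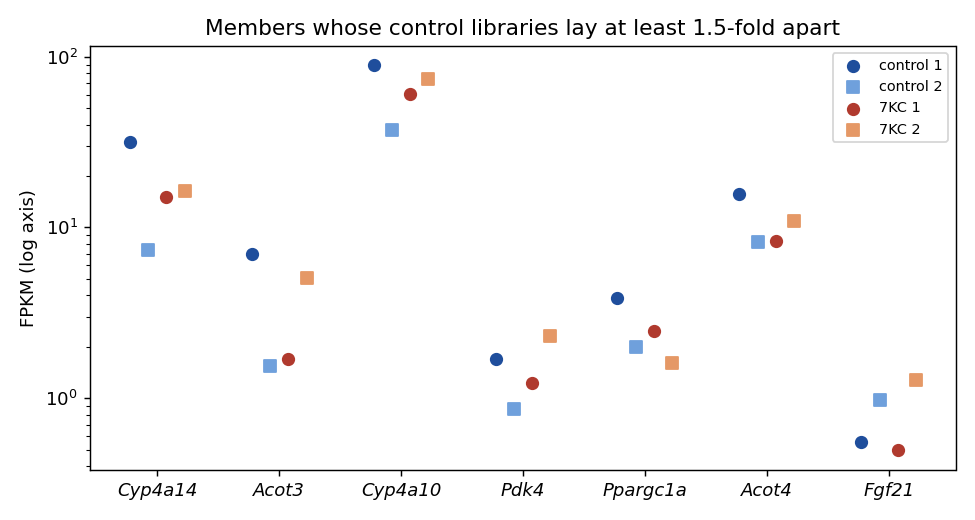
FPKM on a log axis in each library for the 7 members whose control libraries were at least 1.5-fold apart; circles and squares are replicates 1 and 2, blue is control and red or orange is 7KC. Except in Fgf21, control replicate 1 is above control replicate 2, and in Cyp4a14 and Cyp4a10 both 7KC libraries lie between the control libraries.

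The acyl-CoA thioesterases, which release free fatty acid from coenzyme A, lie side by side on chromosome 12 and had a median log2 change of 0.04 (-0.01 after quantile normalization, and from -0.34 to 0.60 with 1 library left out). Acot1, the cytosolic enzyme, had the highest mean over the 4 libraries, at 13.6 and 9.89 FPKM in control liver and 12 and 15.6 FPKM with 7KC, and the groups overlapped (0.23, SE 0.21, limma adjusted p 0.595). Acot2, the mitochondrial enzyme, was at 1.43 and 1.05 FPKM against 1.57 and 2.79 FPKM. The 7KC livers were both higher, the ratio of the means was 1.76 and the log2 change was 0.59 (SE 0.27, adjusted p 0.333), with most of the difference in 7KC replicate 2. The gene lies at chr12:83987861-83993873 (plus strand, mm10). About 28.9 to 76.9 reads per library stood behind Acot2. The peroxisomal enzymes went without a direction: Acot3 was at 6.99 and 1.54 against 1.7 and 5.08 FPKM (-0.16, SE 0.72), and Acot4 at 15.6 and 8.2 against 8.34 and 10.9 FPKM (-0.24, SE 0.32). Acot1 and Acot2 share 19.7% and 20.5% of their 75-base windows with each other.

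Of the regulators, Ppara itself was at 58.5 and 51 FPKM in control liver and 48 and 50.5 FPKM with 7KC. Both 7KC libraries lay below both control libraries, but 7KC replicate 2 was almost level with control replicate 2, and the log2 change was -0.15 (SE 0.12, limma adjusted p 0.562, 95% interval -0.45 to 0.16). Ppargc1a, the coactivator PGC-1α that is induced by fasting, was at 3.85 and 2 against 2.48 and 1.61 FPKM (log2 change -0.39, SE 0.32) with overlap. When control replicate 1 was left out, the change of Ppargc1a was 0.01.

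The 5 other PPARα targets had a median log2 change of 0.09 (-0.05 after quantile normalization, and from -0.04 to 0.51 with 1 library left out). Vnn1, the pantetheinase that recycles the precursor of coenzyme A, was at 6.18 and 9.1 FPKM in control liver and 10.7 and 12.9 FPKM with 7KC. It had a ratio of the means of 1.54 and a log2 difference of 0.61 (SE 0.21, limma p 0.0308, adjusted p 0.232), without overlap. The gene lies at chr10:23894688-23905343 (plus strand). Over all settings tried its adjusted p (limma) ranged from 0.0313, relative to the hepatocyte markers, to 0.692, without 7KC replicate 2. Angptl4, a secreted inhibitor of lipoprotein lipase, was at 118 and 104 against 90.3 and 84.4 FPKM, also without overlap but lower in the 7KC group (-0.34, SE 0.12, p 0.0381, adjusted p 0.251). These 2 targets of the same receptor thus had opposite directions on the deposited scale, while relative to the hepatocyte markers Angptl4 was at 0.13 as well. Only Vnn1 and Acot2 had group means at least 1.5-fold apart without overlap, 2 higher members of 36, where 11.9% of all tested genes were that much higher and 2.37% that much lower.

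Fabp1, the liver fatty acid binding protein, was by far the most abundant member, at 4764 and 3828 FPKM in control liver and 4837 and 2857 FPKM with 7KC, and the groups overlapped (-0.20, SE 0.32, limma adjusted p 0.778). Pdk4, which shuts off pyruvate oxidation when fat is burned, was at 1.7 and 0.865 against 1.23 and 2.31 FPKM (0.35, SE 0.34). Fgf21, the fasting hormone of the liver, was at 0.553 and 0.98 against 0.494 and 1.28 FPKM (0.09, SE 0.35), which rests on about 5.05 to 13.2 reads per library, too few to show a difference of this size.

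The compartments were then set side by side. The summed level of the 11 mitochondrial members was 1755 and 1740 FPKM in control liver and 1547 and 1394 FPKM with 7KC, with no overlap on the deposited scale. That of the 7 peroxisomal members was 870 and 882 against 904 and 904 FPKM, slightly higher with a ratio of the means of 1.03 and no overlap. This lack of overlap rested on Ehhadh (84.5 and 63.1 against 95 and 99.7 FPKM), and the other peroxisomal members together overlapped. The summed level of the 3 microsomal members was 194 and 121 against 150 and 172 FPKM, with overlap. The ratio of the mitochondrial to the peroxisomal sum does not depend on how a library is scaled. It was 2.02 and 1.97 in control liver and 1.71 and 1.54 with 7KC, so that the 7KC mean was 0.815 times the control mean. With 2 libraries against 2 the exact permutation p of 0.333 (two-sided) is the smallest that the design allows, both for this ratio and for either sum. The ratio of the 7KC to the control mean was 0.829 without Acaa2, the most abundant mitochondrial member, and 0.825 when geometric means took the place of sums. The wider lists did not show this difference: the 34 further peroxisomal genes summed to 5804 and 6098 FPKM in control liver and 5671 and 4614 FPKM with 7KC (ratio of the means 0.864), and the 8 further mitochondrial genes had a ratio of 0.867. The mitochondrial sum was also lower against the 4 activation and carnitine members, at 4.1 and 4.38 times their sum in the control libraries and 2.97 and 3.18 times in the 7KC libraries (exact permutation p 0.333, two-sided). The wider list did not show this difference either. Its 17 further genes of uptake, activation and carnitine summed to 2687 and 2590 FPKM in control liver and 2453 and 1985 FPKM with 7KC. Their ratio of the means was 0.841, beside 0.842 for the mitochondrial members.

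**Figure D4:**
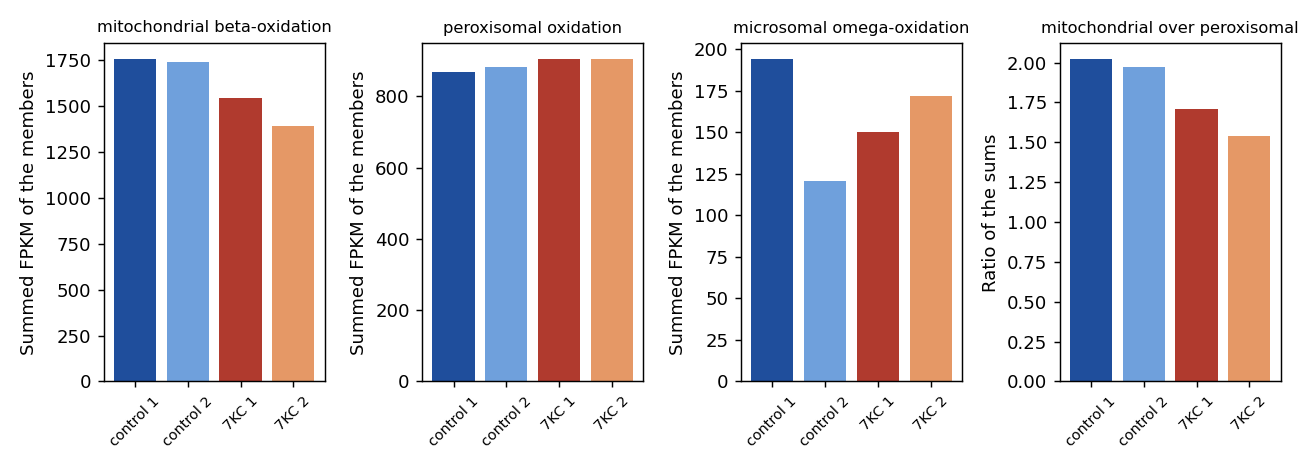
Summed FPKM of the 11 mitochondrial, 7 peroxisomal and 3 microsomal members in each library, and the ratio of the mitochondrial to the peroxisomal sum, as bars from 0 with 1 bar per library. The mitochondrial sum is 1755 and 1740 FPKM in control liver and 1547 and 1394 FPKM with 7KC, the peroxisomal sum lies between 870 and 904 FPKM in all 4, and the ratio is below both control values in both 7KC libraries.

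The direction of the groups, in contrast to their ratio, depended on the scale. The FPKM of all genes summed to 685028 and 671235 in control liver and 619828 and 557138 with 7KC. As a share of this sum the mitochondrial members took 0.256% and 0.259% in control liver and 0.250% in each 7KC library, and the peroxisomal members 0.127% and 0.131% against 0.146% and 0.162%. After the libraries were given equal sums (median of all genes then 0.17), the mitochondrial median was 0.03 and the peroxisomal median 0.23, and without overlap 4 of the 11 mitochondrial members were lower, against 7.86% of all tested genes on that scale, and 4 higher, against 46.5%. Relative to the geometric mean of the 12 hepatocyte markers (median of all genes then 0.40), the mitochondrial median was 0.29, the peroxisomal 0.50 and the microsomal 0.53. None of the 36 members passed the threshold with equal sums (limma), where 3.27% of all tested genes were higher. Relative to the hepatocyte markers 14 of the 36 members were higher in the 7KC group past the threshold (limma), against 18.7% of all tested genes, and none was lower. The 14 were Acsl1, Cpt1a, Slc25a20, Cpt2, Hadhb, Decr1, Ehhadh, Acaa1a, Acaa1b, Crot, Eci2, Pex11a, Aldh3a2 and Vnn1, so all 4 genes of activation and the carnitine shuttle and 6 of the 7 peroxisomal members were among them, and 2 of the 11 mitochondrial members. A factor for each library shifts all genes nearly alike, so the difference between the mitochondrial and the peroxisomal median stays nearly the same under these rescalings by construction.

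**Figure D5:**
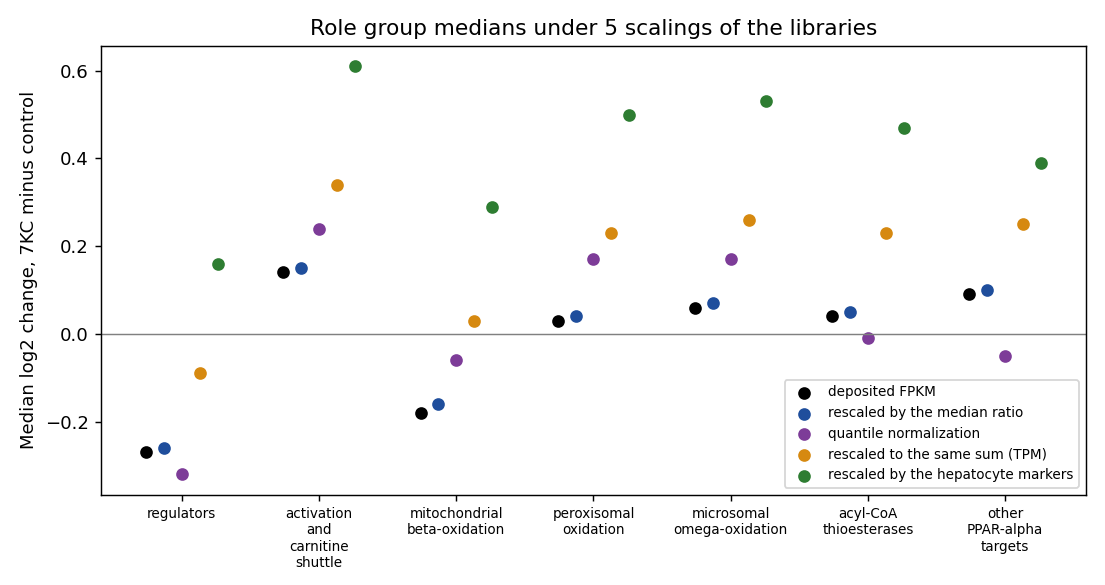
Median log2 change, 7KC minus control, of each role group under 5 scalings of the libraries, with 1 colour for each scaling and a line at 0. The mitochondrial median runs from -0.18 on the deposited scale to 0.29 relative to the hepatocyte markers, and the peroxisomal median from 0.03 to 0.50. All scalings but the quantile one multiply each library by 1 factor and so move the groups together.

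The other genes of these pathways, 126 from lists written from general knowledge, were tested in the same fit. Of the 117 tested, none passed the threshold (limma adjusted p under 0.05), 7 were higher and 8 lower at an unadjusted p under 0.05 (17.8% of all tested genes in either direction), and the median log2 change was -0.06. The 8 further genes of mitochondrial oxidation, among them Acads, Hadh and Echs1, had a median of -0.18 (0.03 with equal sums and 0.29 relative to the hepatocyte markers), and in 5 of them both 7KC libraries lay below both control libraries (27.4% of all tested genes). The 8 genes of ketogenesis had a median of -0.21 (0.26 relative to the hepatocyte markers), and 5 were lower without overlap. The 33 further peroxisomal genes tested had a median of -0.05 (0.14 with equal sums), with 8 higher and 12 lower without overlap, where 25.1% of all tested genes were higher and 27.4% lower. The median was -0.14 for the 16 genes of uptake, activation and carnitine (0.07 with equal sums) and -0.04 for the 5 thioesterases (0.16). It was 0.04 for the 12 tested CYP4 genes, 0.02 for the 23 regulators and 0.14 for the 12 further PPAR targets (0.34 with equal sums and 0.11 after quantile normalization).

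Among the further regulators, Ppargc1b, the coactivator PGC-1β, was at 3.84 and 3.86 FPKM in control liver and 1.77 and 2.11 FPKM with 7KC (log2 change -0.84, SE 0.15, limma p 0.00184, adjusted p 0.0732). The control libraries were nearly equal and the 7KC libraries were at about 0.504 of their mean, which did not pass the threshold. Lpin1, a phosphatidate phosphatase that also acts as a coactivator of PPARα, was at 101 and 176 against 84.9 and 39.9 FPKM (-1.19, SE 0.43, adjusted p 0.246), and Klf15, a transcription factor of the fasting response, at 154 and 121 against 100 and 86.3 FPKM (-0.55, SE 0.16, adjusted p 0.191). Of the CYP4 genes outside the members, Cyp4a12a, a male-biased ω-hydroxylase, was at 45.6 and 38.7 against 22.2 and 29 FPKM (-0.72, SE 0.17, adjusted p 0.128), and Cyp4f14 was at 110 and 177 against 109 and 64.3 FPKM (-0.73, SE 0.33, adjusted p 0.327). Cyp4a12b, a close relative of Cyp4a12a, was at 34.4 and 18.9 against 27.9 and 25.4 FPKM and overlapped (0.06, SE 0.28). Windows shared between these relatives were not counted, so how their reads were divided is not known. Cpt1b, the muscle form of the carnitine palmitoyltransferase, was low, at 1.15 and 0.938 against 0.347 and 0.905 FPKM (-0.50, SE 0.29). Ppargc1b, Lpin1, Klf15, Cyp4a12a, Cyp4f14 and Cpt1b were picked as the lowest log2 changes among the tested context genes whose groups did not overlap. Their log2 change was below 0 under each of the 5 scalings, but as small as -0.08 in Klf15 relative to the hepatocyte markers. They were picked for low changes in these same data, so the shared sign is no separate evidence of a direction.

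Higher in value without overlap were Cyp4f18, a leukotriene ω-hydroxylase of leukocytes, at 2.1 and 1.26 FPKM in control liver and 4.77 and 10.7 FPKM with 7KC (1.84, SE 0.40, limma adjusted p 0.107), and Ucp2, an uncoupling protein homologue that is abundant in macrophages, at 72.5 and 56.9 against 134 and 170 FPKM (1.23, SE 0.18, adjusted p 0.0606). Both had their highest value in 7KC replicate 2, the library with the highest macrophage marker sum (1972 FPKM), and the part of the leukocyte markers in these differences was not tested. Plin2, a coat protein of lipid droplets, was at 145 and 106 against 195 and 209 FPKM (0.70, SE 0.18, adjusted p 0.144), and the lipase inhibitor G0s2 at 46 and 13.5 against 48.6 and 54.6 FPKM (1.03, SE 0.55, adjusted p 0.384), with control replicate 2 far below the other libraries. Cyp4f16 was at 1.57 and 1.43 against 2.82 and 3.98 FPKM (0.94, SE 0.19, adjusted p 0.0989) and Slc27a1, a fatty acid transport protein, at 3.05 and 2.53 against 3.48 and 5.68 FPKM (0.60, SE 0.24, adjusted p 0.289). These 6 were picked by the same rule in the other direction, and none passed the threshold on the deposited scale. Ucp2 did with equal sums (limma adjusted p 0.0322), and relative to the hepatocyte markers Ucp2, Plin2, Cyp4f18 and Cyp4f16 did.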

How the data were processed

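Poly(A) RNA of liver was sequenced by the authors from stranded libraries (75-base single-end reads), and mapped to mm10 with TopHat2 2.1.1 and Bowtie2 2.2.8 according to the submitters' processing notes. The study's methods name other versions of these tools. The authors deposited FPKM, 1 value per gene symbol and library. The processing notes name Cuffdiff 2.2.1 as their source, whereas the study's methods name Cufflinks. The annotation, strand and multi-read settings are not given in the sources used here, so close relatives can have exchanged reads. Since FPKM hold no raw counts, count models were left aside.

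Values were compared as log2(FPKM + 0.5), which understates changes of low genes, in the 12299 genes that averaged 0.5 FPKM or more, with limma 3.58.1 in R 4.3.3 (group as the only term, prior variance following the mean). P-values were adjusted over all tested genes by the Benjamini-Hochberg method, with 0.05 as the threshold. The fit was tested on simulated data. Nothing states that the libraries came from separate mice, so p-values measure the spread between these samples. Depth was estimated from whole-read steps of low FPKM values over GENCODE M21 transcripts, less a fragment of 200 bases. At the chosen depth 70.1% to 74.0% of values of up to 10 reads lay within 0.1 of a whole read. Windows of 75 bases shared between genes were counted over the same transcripts.

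The members and lists were chosen with earlier results of these data known. Library values were to be given for members without overlap and at least 1.5-fold apart and for the most abundant of each role group, and those of other members were added after their values were seen. Context genes were named as the 6 largest changes without overlap in each direction, and Cyp4a12b was named beside Cyp4a12a.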

Additional observations from a re-analysis of the deposited data

How the results depend on the processing

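No member passed the threshold on the deposited scale, nor with a pseudocount of 1 or 0.1 FPKM, a mean of at least 1 FPKM, no filter, no trend in the prior variance, the median ratio, quantile normalization or equal sums, and 14 were higher relative to the hepatocyte markers. Leaving out 1 library gave 0 to 1 higher members (Cyp4a14 without control replicate 1). The labels share replicate numbers between groups. With a replicate block 0 members were called in either direction, and 0 of all genes (1269 higher and 582 lower at an unadjusted p under 0.05). Deviations of same-numbered libraries from their group means correlated at -0.141 over the tested genes. With 2 libraries per group, this single value cannot show whether the numbers pair the samples. Over all genes the deposited scale gave 59 higher and 3 lower calls, a pseudocount of 1 FPKM 111 and 4, no filter 0 and 1 (1792 and 842 at an unadjusted p under 0.05), no trend 39 and 1, the median ratio 94 and 4, equal sums 402 and 7, the hepatocyte markers 2302 and 8, and leaving out 1 library 2 to 389 and 1 to 52. A crossed block, added after seeing the data, called 551 genes higher and 37 lower, and 0 members.

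Quantile normalization moved the mitochondrial median to -0.06 and the peroxisomal to 0.17, and turned Hadhb (0.09), Hsd17b4 (0.01) and Fgf21 (-0.10). The median ratio moved the peroxisomal median to 0.04. With equal sums the medians were 0.22 for all members, 0.03 for mitochondrial and 0.23 for peroxisomal members, with 17 members higher and 5 lower without overlap (46.5% and 7.86% of all tested genes), 4 of the lower ones mitochondrial, and the direction turned in Ppara (0.06), Acadl (0.04), Hadha (0.12), Hadhb (0.18), Eci1 (0.08), Etfdh (0.03), Hsd17b4 (0.07), Acot3 (0.03) and Fabp1 (0.01). Relative to the hepatocyte markers the medians were 0.47, 0.29 and 0.50, 27 members were higher and 0 lower without overlap (78.3% and 0.911% of all tested genes), so 0 mitochondrial members were lower, and the direction turned in Ppara (0.32), Acadvl (0.13), Acadl (0.31), Acadm (0.26), Hadha (0.38), Hadhb (0.45), Acaa2 (0.16), Eci1 (0.35), Etfa (0.08), Etfb (0.18), Etfdh (0.29), Hsd17b4 (0.34), Acot3 (0.25), Acot4 (0.21), Fabp1 (0.27) and Angptl4 (0.13). By construction these shifts come from the library factors, and what the factors reflect was not tested.

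With 1 library left out, the medians ranged from -0.08 to 0.02 for all members, 0.01 to 0.09 for peroxisomal and -0.41 to 0.84 for microsomal members, -0.34 to 0.60 for thioesterases and -0.04 to 0.51 for other targets. Members without overlap numbered 10 to 17 higher and 14 to 21 lower, where 33.7% to 37.3% of all tested genes were higher and 37.5% to 41.9% lower. Single members turned direction, with ranges from -0.80 to 0.01 in Ppargc1a, -0.03 to 0.13 in Cpt1a, -0.08 to 0.14 in Cpt2, -0.04 to 0.24 in Decr1, -0.03 to 0.06 in Acaa1b, -0.03 to 0.09 in Crot, -0.41 to 0.84 in Cyp4a10, -0.99 to 1.03 in Cyp4a14, -0.01 to 0.12 in Aldh3a2, -1.09 to 0.78 in Acot3, -0.69 to 0.21 in Acot4, -0.58 to 0.18 in Fabp1 and -0.33 to 0.51 in Fgf21. The causes were not tested. Depth limits Fgf21 and Acot2, which rest on few reads.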

Other observations

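Genes that follow the clock and the feeding state had lower values in the 7KC group on the deposited scale. Of 11 tested clock genes, 10 had a log2 change below 0, the median was -0.30 (-0.14 with equal sums and 0.13 relative to the hepatocyte markers) and both 7KC libraries lay below both control libraries in 6, where 27.4% of all tested genes did. None passed the threshold (limma), and 2 were lower at an unadjusted p under 0.05, Nr1d1 and Nr1d2, which encode clock repressors. Nr1d1 was at 35.4 and 23.3 FPKM in control liver and 20.2 and 16.5 FPKM with 7KC. All 9 tested genes of the fasting and feeding list were below 0, with a median of -0.62 (-0.44 and -0.18 on the same 2 scales), 6 of them without overlap, and none passed. This held for genes of the fasted liver, such as G6pc, of glucose release, at 348 and 310 against 128 and 197 FPKM, and Igfbp1 at 247 and 205 against 110 and 154 FPKM, and for genes of the fed liver, such as Srebf1, of lipid synthesis, at 74.1 and 101 against 54.5 and 52.5 FPKM, and Fasn at 22.5 and 36.6 against 16.2 and 19 FPKM. These genes were named after their values were seen.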
